A study of Mus musculus with 68 samples.

Results

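The Kdm4 and Kdm3 H3K9 demethylases described here are 7 genes, Kdm4a, Kdm4b, Kdm4c, Kdm4d, Kdm3a, Kdm3b and Kdm1a. They were picked by gene name and not by a measured value, and they are 7 of the 24421 reference genes listed in every library. Each is on a single row of the gene tables, and its level is given as transcripts per 1000000 (TPM), a value scaled for transcript length and library size. Between genes these levels depend on which row is read, the gene's reference row as here or the loci assembled at the gene, and both are given where the order changes.

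Methylation of lysine 9 of histone H3 marks silent chromatin. Trimethylation (H3K9me3) is written by enzymes such as SUV39H1, SUV39H2 and SETDB1, and its erasers decide where it can be lost again. Proteins of the KDM4 family use a Jumonji domain to remove the tri- and dimethyl marks, while KDM3A and KDM3B remove mono- and dimethyl marks from the same residue. KDM1A (LSD1) is a flavin-dependent enzyme that removes mono- and dimethyl marks, best known from H3K4 in the CoREST complex and reported on H3K9 as well. In somatic cell nuclear transfer (SCNT), H3K9me3 carried in with the donor nucleus is a known barrier to genome activation, and supplying a KDM4 enzyme to the embryo is a known way to lower it.

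The libraries came from 2 mouse experiments, both read by Smart-seq2, which copies polyadenylated RNA from a few cells, here 10 blastomeres per library. The first held 56 libraries of untreated material. Of these, 3 were cumulus cells (CCs) of BDF1 females, the nuclear donors. The other 53 were SCNT embryos made by injecting a CC into an enucleated BDF1 oocyte and activating it with strontium and cytochalasin B. There were 6 libraries each at 6 and 14 h post activation (6 hpa and 14 hpa), early and late 2-cell (E2C and L2C), 8-cell (8C) and morula, 5 libraries at 4-cell (4C), and, from embryonic day 4 blastocysts, 6 of the ICM (inner cell mass) and 6 of the TE (trophectoderm). The second experiment held 12 libraries from blastocysts of fertilized zygotes, 2 for each lineage and treatment. Their zygotes came from C57BL/6j parents and received a morpholino (MO), an antisense oligonucleotide that blocks a transcript, against Max or Mcrs1, or a random control. Max MO was injected at 0.3 mM, Mcrs1 MO at 0.2 mM and the control MO at 1 mM, so the target and the amount of MO cannot be told apart. Donor females of both experiments were between 8 and 10 weeks old. The 4 control libraries carry labels that say both control and untreated; here they stand for the control MO. ICM and TE were separated by hand, so either can carry cells of the other. The embryos behind a library are not tied to single animals in the labels, so a p-value here measures the spread between libraries, which may be technical in part.

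Depth, taken as the deposited coverage divided by FPKM, ranged from 1.00 to 5.17 aligned gigabases. CC identity was borne out by its markers: 9 of 10 cumulus genes averaged 1 TPM or more and summed to between 1387 and 2126 TPM per library, against at most 66.6 TPM in any embryo library. The 8 oocyte genes summed to between 4442 and 8499 TPM at 6 hpa and to at most 2.32 TPM in CCs. TE markers were also high in ICM libraries, and whether through carried-over TE cells or expression in ICM cells was not tested. The 8 TE genes summed to between 2095 and 8744 TPM in the 6 SCNT ICM libraries. They summed to between 6151 and 17167 TPM in the 6 SCNT TE libraries, so the ranges overlapped. Within replicates 1 to 3 they did not, with at most 6026 TPM in ICM and at least 6151 TPM in TE. Nor did they within replicates 4 to 6, with at most 8744 TPM in ICM and at least 14221 TPM in TE. Control ICM replicate 1 stood apart: its TE genes summed to 16944 TPM against 377 TPM in control ICM replicate 2, although its ICM genes, at 1307 TPM, were also high. SCNT ICM replicate 3 had the lowest sum of ICM genes in its group, 174 TPM, below the 304 TPM of SCNT TE replicate 4. Results that rest on control ICM replicate 1 are given with and without it.

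Promoter sequence is shown for the 3 members that fell after Max MO injection, because MAX, the targeted factor, is known to bind the E-box CACGTG. Each run gives the 250 bases ahead of a RefSeq transcript start (GRCm38.p6, the mm10 assembly), 5′ to 3′ on the gene's strand. Capitals mark every CACGTG, every GC box (CCGCCC), every CCAAT box (CCAAT) and every TATA box (TATAAA), searched on both strands. Kdm4c (chr4:74242497-74405864, plus strand) has 2 listed starts. Its upstream window is chr4:74242247-74242496 and its downstream window, inside the gene, is chr4:74251629-74251878. Kdm3a (chr6:71588970-71632917, minus strand) has 3 listed starts, and the window shown, chr6:71632918-71633167, belongs to the start at the gene's edge. The Kdm1a window (gene at chr4:136550533-136602723, minus strand) is chr4:136602724-136602973.
Kdm4c upstream start: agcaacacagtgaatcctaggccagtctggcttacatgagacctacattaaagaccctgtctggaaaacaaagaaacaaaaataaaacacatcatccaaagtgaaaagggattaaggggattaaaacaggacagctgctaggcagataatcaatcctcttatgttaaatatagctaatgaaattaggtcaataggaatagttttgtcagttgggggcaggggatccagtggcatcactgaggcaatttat
Kdm4c downstream start: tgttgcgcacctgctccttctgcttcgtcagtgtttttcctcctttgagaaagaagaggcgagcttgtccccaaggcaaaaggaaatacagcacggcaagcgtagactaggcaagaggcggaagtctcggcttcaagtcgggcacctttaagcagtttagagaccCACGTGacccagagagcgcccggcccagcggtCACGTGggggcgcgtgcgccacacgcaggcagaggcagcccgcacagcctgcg
Kdm3a: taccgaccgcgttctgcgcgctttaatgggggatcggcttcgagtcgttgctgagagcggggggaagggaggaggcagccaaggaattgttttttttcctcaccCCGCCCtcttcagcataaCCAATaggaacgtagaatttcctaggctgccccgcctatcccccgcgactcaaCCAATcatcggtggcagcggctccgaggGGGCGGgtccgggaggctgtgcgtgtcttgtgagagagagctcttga
Kdm1a: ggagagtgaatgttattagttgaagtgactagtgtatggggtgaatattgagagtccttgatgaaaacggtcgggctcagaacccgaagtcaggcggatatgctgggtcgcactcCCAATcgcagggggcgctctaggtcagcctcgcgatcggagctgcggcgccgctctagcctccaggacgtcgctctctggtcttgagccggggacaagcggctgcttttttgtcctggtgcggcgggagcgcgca
The downstream Kdm4c window held 2 copies of CACGTG, and the letters were found in 1 of the 8 windows listed for the 5 members that had any. Over all 32851 windows of the same length, 6.02% held it. The Kdm3a window shown held 2 GC boxes and 2 CCAAT boxes with 59.6% G or C, and the Kdm1a window 1 CCAAT box. Of the Kdm3a windows not shown, chr6:71632687-71632936 held 4 GC boxes and 0 CCAAT boxes with 72.8% G or C, and chr6:71609140-71609389 held 0 of either with 48.4%. A GC box was found in 32.7% and a CCAAT box in 33.8% of all windows. The 2 Kdm4c windows differed in base composition, with 0 CG pairs and 39.6% G or C upstream against 19 CG pairs and 60.4% downstream, where the median window had 6 CG pairs and 52.4%. These matches describe the letters and show no binding.

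Across the SCNT series the erasers differed widely in abundance. By mean level on the reference row, Kdm1a was the most abundant member at 6 hpa, with 49.6 ± 10.6 TPM (SD, n = 6), and at 14 hpa, E2C, 4C and in SCNT ICM and TE, and Kdm3a at L2C, 8C and morula. Part of this order rested on the libraries used. In replicates 4 to 6 alone Kdm3a led SCNT ICM, with a mean of 22.3 TPM against 15.8 TPM for Kdm1a, and Kdm4c led 4C, with 28.5 against 25.6 TPM. On assembled loci Kdm4c led 4C, with a mean of 65.6 TPM against 45.9 TPM for Kdm3a and 37.4 TPM for Kdm1a. Kdm4c also led 8C with 51.9 TPM, against 32.1 TPM for Kdm3b, 26.9 TPM for Kdm3a and 17.2 TPM for Kdm1a. Kdm3b led SCNT TE there, with 42.1 TPM against 34.3 TPM for Kdm1a. Kdm4d, a testis-enriched member of its family, was listed at 0 in 37 of the 68 libraries and reached 1 TPM in 3. Kdm4b was listed at 0 in 15 libraries and reached 1 TPM in 23, and Kdm4a in 22. Kdm4c, Kdm3a, Kdm3b and Kdm1a were above 0 in every library.

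**Figure D1:**
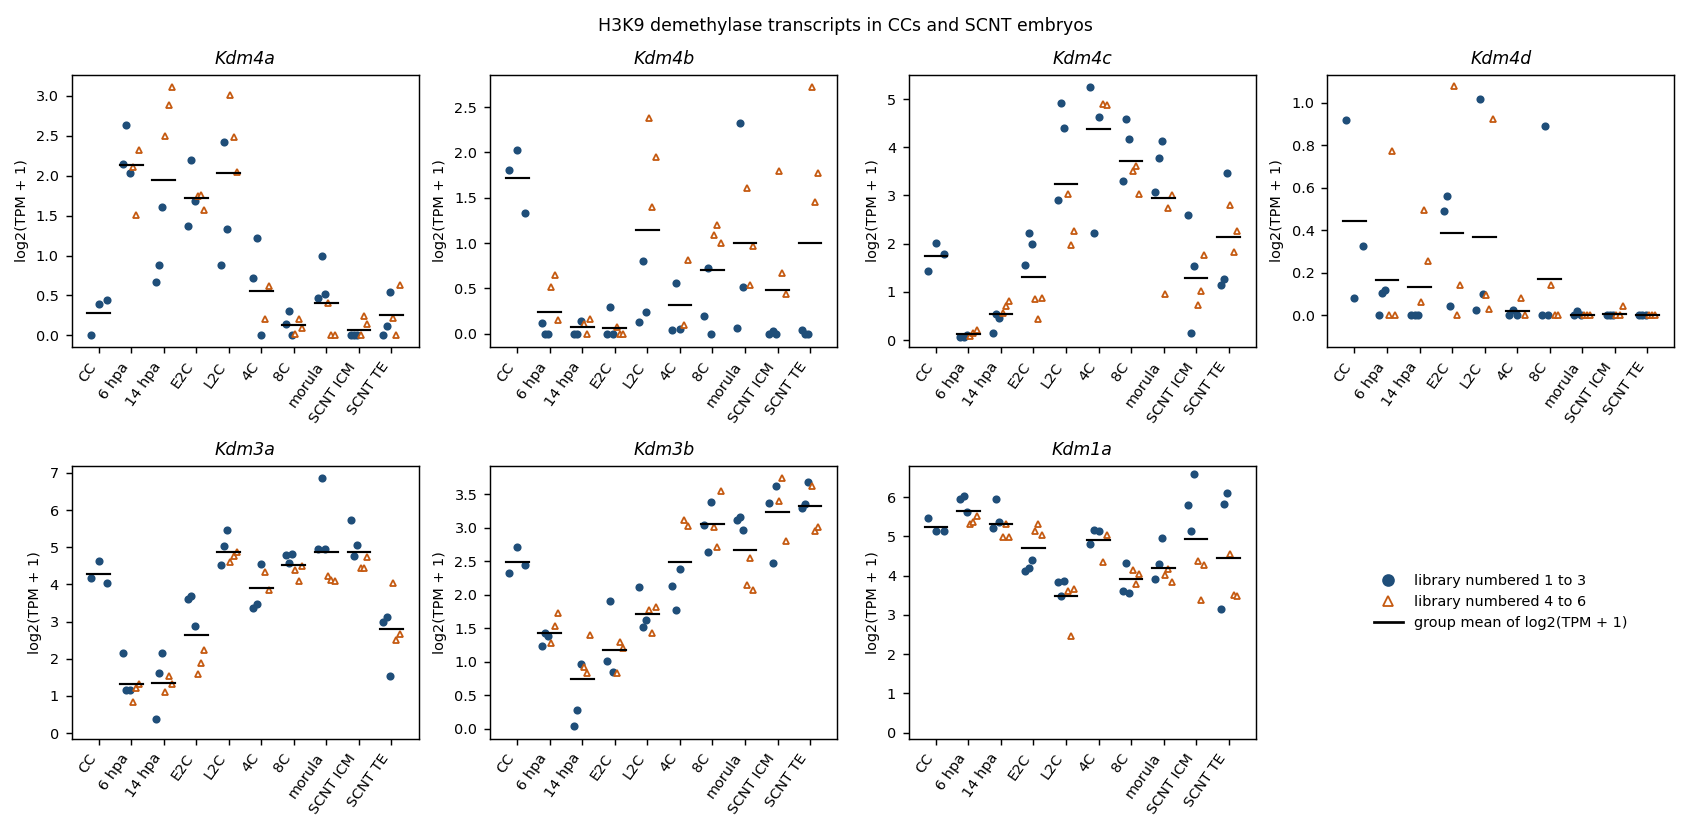
Level of each H3K9 demethylase in CCs and SCNT embryos, as log2(TPM + 1) on the vertical axis with its own scale in each panel and the groups in developmental order on the horizontal axis. Points are libraries, split by their replicate number, and bars are group means. Kdm4a falls toward 0 at 4C while Kdm4c, Kdm3a and Kdm3b climb from low levels at 6 hpa.

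Within the KDM4 family the gene that supplied most of the RNA changed during cleavage. At 6 hpa Kdm4a made up 89.1% of the summed Kdm4 mean, and Kdm4c 2.18%. At E2C they made up 52.1% and 39.0%, an order that was not the same in all libraries: Kdm4c averaged 2.85 TPM and Kdm4a 2.46 TPM in replicates 1 to 3, against 0.663 and 2.24 TPM in replicates 4 to 6, and on assembled loci the means over all 6 were 10.6 and 8.22 TPM. At 4C Kdm4c made up 96.7% and Kdm4a 2.13%. The summed level of the 4 Kdm4 genes was 3.92 ± 0.81 TPM at 6 hpa, 4.50 ± 1.91 TPM at E2C, 17.1 ± 10.5 TPM at L2C and 25.10 ± 12.04 TPM at 4C (SD, n = 6, and 5 at 4C), after which it was 14.0 ± 6.2 TPM at 8C, 10.1 ± 6.0 TPM at morula, 2.48 ± 1.64 TPM in SCNT ICM and 6.01 ± 4.48 TPM in SCNT TE (SD, n = 6). In CCs the sum was 5.38 ± 0.98 TPM (SD, n = 3), split almost evenly between Kdm4c with 44.5% and Kdm4b with 43.8%.

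**Figure D2:**
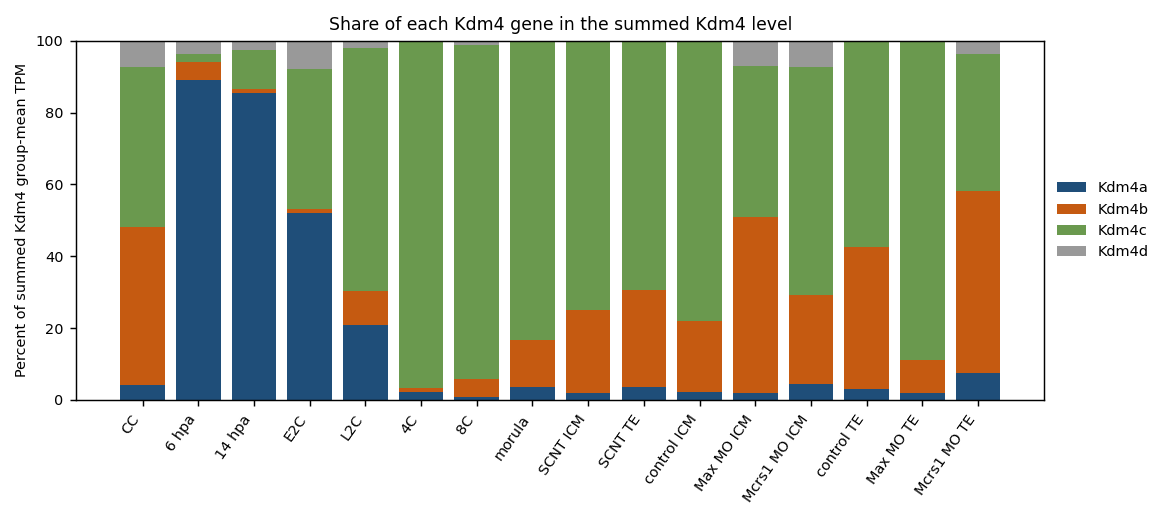
Share of each Kdm4 gene in the sum of the 4 group-mean TPM values (vertical axis, percent), for every group of the 2 experiments along the horizontal axis. Kdm4a holds 89.1% at 6 hpa and Kdm4c 96.7% at 4C.

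Kdm4a, present in the oocyte as a maternal transcript, was detected through the 2-cell stage and then fell to under 1 TPM by 8C on its reference row. At 6 hpa its 6 libraries ran from 1.85 to 5.24 TPM with a median of 3.38. At 14 hpa they ran from 0.593 to 7.64 TPM, with 3 libraries numbered 1 to 3 at most at 2.04 TPM and those numbered 4 to 6 between 4.63 and 7.64 TPM. At L2C the range was 0.850 to 7.03 TPM with a median of 3.74. The 5 libraries at 4C held 0.649, 1.33, 0, 0.156 and 0.532 TPM, and at 8C the highest was 0.236 TPM. L2C and 4C overlapped through a single L2C library, whereas 6 hpa and 8C did not overlap. Kdm4a fell from L2C to 4C by 1.48 ± 0.33 on the log2(TPM + 1) scale (SE, limma adjusted p = 2.2e-04), and from 6 hpa to 8C by 2.0 ± 0.31 (adjusted p = 1.4e-07). Under quantile normalization the L2C to 4C difference was -0.56 with an adjusted p of 0.115, and among replicates 1 to 3 alone it was -0.90 with an adjusted p of 0.114. From 8C onward Kdm4a was below 1 TPM on its reference row in every SCNT library, and 4 of 6 SCNT ICM libraries listed it at 0. On assembled loci the 4C libraries held 9.41, 15.1, 0, 0 and 4.87 TPM, the highest of them above every L2C library. The fall from L2C to 4C on those loci was -1.60 (limma adjusted p = 0.034). Their means were 11.5 TPM at L2C, 5.88 TPM at 4C and 1.27 TPM at 8C, with up to 5.82 TPM in SCNT TE. CCs held 0, 0.319 and 0.360 TPM, all under the 6 hpa range, and Kdm4a was lower in CCs than at 6 hpa by 1.85 ± 0.37 (adjusted p = 2.0e-05).

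Kdm4c followed the opposite course. It was nearly absent after activation, between 0.052 and 0.152 TPM at 6 hpa, and between 0.106 and 0.767 TPM at 14 hpa. The E2C libraries held 1.95, 3.64, 2.95, 0.814, 0.351 and 0.825 TPM, so those numbered 1 to 3 were all above those numbered 4 to 6. At L2C the range was 2.91 to 29.0 TPM with a median of 6.79, and 4 of the 5 libraries at 4C held between 23.7 and 37.0 TPM. The remaining 4C library, replicate 2, held 3.69 TPM. Kdm4c rose from E2C to L2C by 1.93 ± 0.48 on the log2 scale (SE, limma adjusted p = 0.0010), and this difference stayed past the threshold in each of the 17 alternative fits. From 6 hpa to 8C, where the libraries ran from 7.16 to 23.2 TPM and did not overlap, it rose by 3.59 ± 0.48 (adjusted p = 3.6e-09). The step from L2C to 4C, +1.13 ± 0.50, did not pass (adjusted p = 0.067). It depended on library number, at -0.04 in libraries numbered 1 to 3 and +2.46 in those numbered 4 to 6. With replicate 2 left out of all groups it was +1.996 with a limma adjusted p of 6.2e-04. That fit drops the low 4C library and also L2C replicate 2, the highest at L2C with 29.0 TPM. After 4C the medians were 10.9 TPM at 8C, 7.23 TPM at morula, 1.45 TPM in SCNT ICM and 3.18 TPM in SCNT TE. Kdm4c fell from morula to SCNT ICM by 1.65 ± 0.48 (adjusted p = 0.0076), with overlapping ranges of 0.955 to 16.6 TPM and 0.115 to 5.05 TPM. It missed the threshold under quantile normalization (-1.09, adjusted p = 0.111), in a fit of those groups alone (adjusted p = 0.071) and on the TPM of loci assembled at the gene (-0.78, adjusted p = 0.432).

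Kdm4b, another eraser of the tri- and dimethyl marks, had little RNA in the reconstructed embryo before L2C. Its highest values were 0.562 TPM at 6 hpa, 0.122 TPM at 14 hpa and 0.230 TPM at E2C, with 2, 3 and 4 of 6 libraries listed at 0. At L2C the libraries held 0.0945, 0.738, 0.178, 4.20, 1.63 and 2.87 TPM, all 3 of those numbered 4 to 6 above all 3 of those numbered 1 to 3. The same order held in SCNT TE, with 0.0279, 0 and 0 TPM in replicates 1 to 3 and 5.61, 1.73 and 2.41 TPM in replicates 4 to 6. CCs held 2.49, 3.06 and 1.52 TPM. Kdm4b (chr17:56326050-56402873, plus strand) averaged 0.722 TPM over the SCNT libraries, under the mean of 1 TPM required for a test, as did Kdm4d with 0.129 TPM, so neither was tested there.

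Kdm3a and Kdm3b, the erasers of lower H3K9 methylation states, were both higher at 8C than at 6 hpa. Kdm3a ran from 0.780 to 3.45 TPM at 6 hpa and from 0.308 to 3.42 TPM at 14 hpa. The E2C libraries held 11.2, 11.8 and 6.31 TPM in replicates 1 to 3 and 1.99, 2.68 and 3.67 TPM in replicates 4 to 6. At L2C all 6 libraries were between 21.8 and 43.2 TPM, above every E2C library. Kdm3a rose from 14 hpa to E2C by 1.28 ± 0.39 on the log2 scale (SE, limma adjusted p = 0.031) and from E2C to L2C by 2.24 ± 0.39 (adjusted p = 5.7e-06). The first of these steps reached +2.0 in libraries numbered 1 to 3 but +0.57 in those numbered 4 to 6 (adjusted p = 0.344), it was +1.28 with an adjusted p of 0.075 in a fit of those groups alone, and on assembled loci it was +1.26 with an adjusted p of 0.066. It missed the threshold with replicate 1 (limma adjusted p = 0.277), 2 (0.104), 3 (0.059) or 6 (0.067) left out of all groups. The second stayed past the threshold in each of its 17 alternative fits, and so did the rise from 6 hpa to 8C of 3.21 ± 0.39 (adjusted p = 2.2e-10).

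Kdm3b ran from 1.36 to 2.31 TPM at 6 hpa, from 0.024 to 1.65 TPM at 14 hpa and from 1.68 to 3.33 TPM at L2C. At 8C it ran from 5.22 to 10.7 TPM, and SCNT ICM and TE had medians of 9.44 and 9.02 TPM. None of the adjacent steps passed the threshold for Kdm3b on its reference row; 3 of them did on assembled loci, as given with those loci. The closest, from L2C to 4C, was +0.78 ± 0.29 on the log2 scale with an adjusted p of 0.027 but under 2-fold. Libraries numbered 4 to 6 gave +1.41 and those numbered 1 to 3 gave +0.34. Over the whole interval from 6 hpa to 8C, in which the ranges did not overlap, Kdm3b rose by 1.63 ± 0.28 (limma adjusted p = 8.7e-07).

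Kdm1a was the member with the most maternal RNA. The 6 hpa libraries ran from 39.1 to 64.3 TPM, and the medians were then 37.7 TPM at 14 hpa, 26.1 TPM at E2C, 11.4 TPM at L2C, 31.6 TPM at 4C, 14.2 TPM at 8C and 16.2 TPM at morula. On the reference row the lowest point at L2C, between 4.56 and 13.5 TPM, was separate from E2C, which ran from 16.3 to 39.1 TPM. It was also separate from 4C, which ran from 19.5 to 35.1 TPM. On assembled loci L2C, between 11.1 and 24.5 TPM, overlapped E2C, between 16.5 and 45.8 TPM, and lay below 4C, at least 27.8 TPM. The assembled means were 17.7 TPM at L2C and 17.2 TPM at 8C. Kdm1a fell from E2C to L2C by 1.22 ± 0.40 on the log2 scale (SE, limma adjusted p = 0.011) and rose from L2C to 4C by 1.42 ± 0.41 (adjusted p = 0.0046), the latter with an adjusted p of 0.079 among replicates 1 to 3 alone. Reference genes took between 30.4% and 61.8% of a library's TPM at L2C and between 59.5% and 69.1% at E2C. With TPM rescaled over annotated genes the fall to L2C was -0.92 with an adjusted p of 0.077. Libraries numbered 1 to 3 gave -0.51 and those numbered 4 to 6 gave -1.93. The fall missed the threshold with replicate 4 (limma adjusted p = 0.052) or 5 (0.099) left out of all groups. From 4C to 8C the ranges did not overlap, yet the difference of -0.99 ± 0.41 had an adjusted p of 0.081. Kdm1a fell from 6 hpa to 8C by 1.72 ± 0.40 (adjusted p = 1.3e-04).

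Counted by step, 0 of the 5 tested members were called from 6 hpa to 14 hpa (1 at an unadjusted p under 0.05), where limma called 11.1% of the 11867 genes tested. From 14 hpa to E2C 1 member rose, against 5.83% of all genes called and 2.78% called higher. From E2C to L2C, around the activation of the embryonic genome, 2 members rose and 1 fell, against 34.9% called, 23.7% higher and 11.2% lower. From L2C to 4C 1 rose and 1 fell, against 38.4% called, 11.8% higher and 26.6% lower. From 4C to 8C and from 8C to morula limma called 0 of 5, with 1 and 0 at an unadjusted p under 0.05, against 19.8% and 12.2% of all genes. From morula to SCNT ICM 1 of 5 fell, against 24% of all genes called and 15% lower. From morula to SCNT TE 1 of 5 fell, against 21.8% called and 10.8% lower. From 6 hpa to 8C all 5 tested members were called, 3 higher and 2 lower, where 68.2% of all genes were called, 36.5% higher and 31.7% lower.

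**Figure D3:**
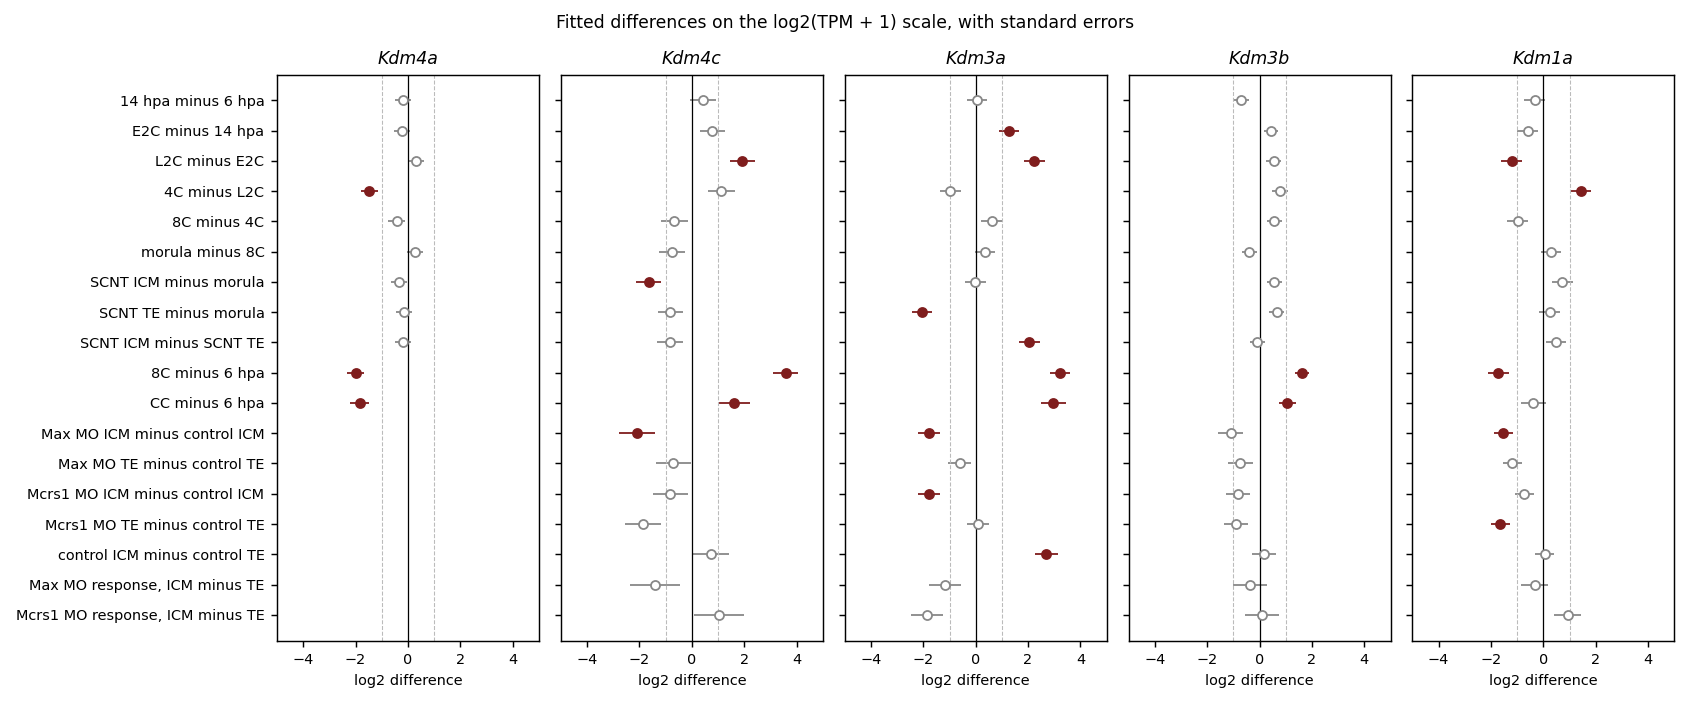
Fitted difference between groups for the 5 members tested in the SCNT fit (horizontal axis, difference in log2(TPM + 1), first group minus second), with one row per comparison and bars of 1 standard error. Filled points are past the threshold of an adjusted p under 0.05 and at least 2-fold, dashed lines mark 2-fold, and Kdm4a was not tested in the morpholino experiment. Kdm3a has filled points in both ICM minus TE comparisons, at 2.05 in SCNT and 2.70 in control blastocysts.

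Other genes of the pathway moved in both directions over the same interval. Among 8 H3K9 methyltransferases 6 were tested from 6 hpa to 8C; Suv39h2, an H3K9me3 writer, fell by 4.71 on the log2 scale, Setdb1 fell by 1.96, and Ehmt2, an H3K9 mono- and dimethyltransferase gene, rose by 2.59. In the list of other H3K9 demethylases 3 of the 4 tested fell, against 31.7% of all genes. They were Kdm1b, better known as an H3K4 eraser, by 5.28, Kdm7a by 3.97 and Phf8 by 1.79. The median change was -2.88 in that list, +1.63 over the 5 tested members and +0.25 over all genes. The 8 methyltransferases summed to 115 ± 24 TPM at 6 hpa and 43.2 ± 6.8 TPM at 8C (SD, n = 6), while the 7 erasers summed to 56.8 ± 11.5 TPM and 58.2 ± 8.7 TPM. These near-equal eraser sums are those of the reference rows, where Kdm1a alone averaged 49.6 TPM at 6 hpa and 14.3 TPM at 8C. On assembled loci the means at 6 hpa and 8C were 0.522 and 51.9 TPM for Kdm4c and 9.59 and 32.1 TPM for Kdm3b. For Kdm3a they were 7.17 and 26.9 TPM, for Kdm1a 51.4 and 17.2 TPM and for Kdm4a 8.55 and 1.27 TPM. All 10 H3K9me3 readers and silencing cofactors were called in that comparison, 4 higher and 6 lower, where 68.2% of all genes were called. Uhrf1, which ties H3K9 methylation to DNA methylation, fell by 5.82, Mphosph8 of the HUSH complex fell by 5.68, and Cbx3, the HP1-gamma gene, rose by 5.32.

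Partners of KDM1A were tested as a list of 10 genes, of which 8 passed the filter in the SCNT libraries. From 6 hpa to 8C, while Kdm1a fell, 3 partners rose and 2 fell. Of all genes 36.5% rose and 31.7% fell over that interval. Hdac1, a histone deacetylase of the CoREST complex, rose by 6.41 on the log2 scale and Hmg20b rose by 1.48, with a list median of -0.38. At the step from E2C to L2C only Hdac1 of these was called, with +2.15 (limma adjusted p = 5.5e-05). Demethylases of other residues gave 2 rises and 3 falls of 7 from 6 hpa to 8C, with Kdm5b, an H3K4 eraser, up by 4.36, Kdm5a up by 3.01 and Kdm6b, an H3K27 eraser, down by 2.92.

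Donor cells and the reconstructed 1-cell embryo differed in most of the tested members. Compared with 6 hpa, CCs had more Kdm3a, Kdm4c and Kdm3b and less Kdm4a, 4 of 5 members called in a fit in which 61.4% of 12084 genes were called, 35.6% higher and 25.8% lower. Kdm3a held 17.0, 23.6 and 15.4 TPM in CCs, above the highest 6 hpa library at 3.45 TPM, a difference of +2.97 ± 0.47 on the log2 scale (SE, limma adjusted p = 2.0e-07). Kdm4c held 1.69, 3.04 and 2.46 TPM, also without overlap, a difference of +1.63 ± 0.58 (adjusted p = 0.013). Kdm3b held 4.01, 5.58 and 4.44 TPM, a difference of +1.07 ± 0.33 (adjusted p = 0.0044). Without CC replicate 2 the Kdm4c difference was +1.49 (adjusted p = 0.054) and the Kdm3b difference +0.95, under 2-fold. Under quantile normalization the Kdm4c difference was +1.32 (adjusted p = 0.053). The Kdm3b difference was also under 2-fold with TPM rescaled over annotated genes, at +0.99, and under quantile normalization, at +0.53. On assembled loci it was +0.92 (limma adjusted p = 0.126). Kdm1a, between 34.1 and 43.1 TPM in CCs, was not called, at -0.39 ± 0.47 (adjusted p = 0.502).

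Between the lineages of the SCNT blastocyst Kdm3a was the member that differed. SCNT ICM held 52.2, 25.9, 32.5, 20.6, 20.7 and 25.7 TPM, and SCNT TE 6.99, 7.67, 1.89, 15.5, 4.71 and 5.37 TPM. Every ICM library was above every TE library. Kdm3a was higher in the ICM by 2.05 ± 0.39 on the log2 scale (SE, limma adjusted p = 4.6e-04), 1 of 5 members called against 5.34% of all genes called and 1.47% higher. Libraries numbered 1 to 3 gave +2.64 and those numbered 4 to 6 gave +1.46. The difference was +1.75 (limma adjusted p = 0.011) with replicate 3 left out of all groups. That fit drops the SCNT ICM library with low ICM markers and also SCNT TE replicate 3, the lowest in TE at 1.89 TPM. In a fit of ICM and TE alone the adjusted p was 0.107. SCNT ICM replicates 1 to 3 had 6177 to 6771 genes at 1 TPM or more and 74.6% to 78.9% of TPM on reference genes, against 9011 to 10032 genes and 89.2% to 89.4% in replicates 4 to 6, and the part of this in the difference was not tested. The summed TE markers that overlap between the lineages were given above, and their part in the size of this difference was not tested. In bulk libraries fewer cells of a type and less RNA per cell cannot be told apart. Against morula, whose libraries ran from 16.1 to 30.2 TPM apart from replicate 2 at 115.5 TPM, Kdm3a fell in TE by 2.06 ± 0.39 (adjusted p = 5.1e-05), and the difference in ICM was -0.01.

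Kdm1a varied more within the SCNT blastocyst than between its lineages. SCNT ICM held 54.5, 34.0 and 95.3 TPM in replicates 1 to 3 and 19.9, 9.37 and 18.3 TPM in replicates 4 to 6, and SCNT TE 7.82, 55.7 and 68.2 TPM and 22.5, 10.4 and 10.2 TPM. All 3 ICM libraries numbered 1 to 3, those with fewer genes at 1 TPM or more, were above the 3 numbered 4 to 6; the part of that gene number was not tested. ICM minus TE was +0.49 ± 0.40 (adjusted p = 0.597). Kdm3b and Kdm4c were not called between the lineages, at -0.09 ± 0.28 and -0.83 ± 0.48. Of the 5 pathway lists of non-members tested, a single gene was called between the lineages, the H3K4 eraser Kdm5a, 1.61 lower in ICM (limma adjusted p = 0.0041).

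Fertilized control blastocysts showed Kdm3a in the same order. Control ICM held 119 and 124 TPM and control TE 13.7 and 23.2 TPM, a difference of +2.70 ± 0.44 on the log2 scale (SE, limma adjusted p = 0.018), 1 of 5 tested members called against 2.92% of 11219 genes, 1.72% higher. Without control ICM replicate 1, the library with high TE markers, it was +2.73 (adjusted p = 0.0047). Without control TE replicate 1, which leaves a single TE library whose spread is assumed to match the other groups, it was +2.34 (adjusted p = 0.154), and in a fit of the 2 control groups alone the adjusted p was 0.447. Set side by side, the mean Kdm3a level in the ICM was 121 TPM in control fertilized blastocysts and 29.6 TPM in SCNT blastocysts, and the mean Kdm3b level was 21.2 and 8.83 TPM. In the TE the means were 18.5 and 7.02 TPM for Kdm3a and 17.3 and 9.16 TPM for Kdm3b. The experiments differ in strain, in treatment and in the share of TPM on reference genes, and these levels were not tested against each other.

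Max MO and Mcrs1 MO blastocysts asked whether loss of either factor changes the erasers. The targeted transcripts came first as a check of the labels. Max held 38.0 and 8.42 TPM in control ICM and 6.82 and 0.443 TPM in Max MO ICM, a difference of -2.51 ± 0.80 on the log2 scale (SE, limma adjusted p = 0.040), and in TE 34.5 and 28.5 TPM against 16.3 and 8.68 TPM, -1.32 ± 0.80 (adjusted p = 0.390). Mcrs1 fell in Mcrs1 MO ICM from 253 and 310 TPM to 86.8 and 73.4 TPM (adjusted p = 0.0033), and in TE from 219 and 294 TPM to 41.1 and 45.5 TPM (adjusted p = 8.7e-04). A morpholino acts on translation or splicing, so RNA is an indirect measure of its effect. Both treatments are compared with the same 2 control libraries in each lineage, so a high or low control moves both sets of differences.

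In Max MO ICM 3 of the 5 tested members fell and 0 rose, where 23.7% of all genes were called and 15.1% were lower. Kdm3a went from 119 and 124 TPM to 36.1 and 33.1 TPM, -1.78 ± 0.44 on the log2 scale (SE, limma adjusted p = 0.014). Kdm1a went from 41.0 and 48.1 TPM to 12.96 and 16.6 TPM, -1.53 ± 0.36 (adjusted p = 0.012). Neither gene overlapped between the groups. Kdm4c went from 7.51 and 27.5 TPM to 1.46 and 4.32 TPM, -2.10 ± 0.68 (adjusted p = 0.042), with the 2 control libraries far apart. Kdm3b, at 29.8 and 12.6 TPM in control and 9.30 and 7.71 TPM in Max MO, did not pass, -1.11 ± 0.46 (adjusted p = 0.098).

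These calls rest on few libraries. Without control ICM replicate 1 the differences were -1.81 for Kdm3a, -1.64 for Kdm1a and -2.98 for Kdm4c, each past the threshold. Without Max MO ICM replicate 1 none of the 3 passed, with adjusted p of 0.056, 0.067 and 0.224. Without Max MO ICM replicate 2 Kdm3a (adjusted p = 0.068) and Kdm4c (0.056) did not pass. Without control ICM replicate 2 Kdm4c was -1.23 (0.183), and Kdm3b was then past the threshold at -1.70 (0.015), while without control ICM replicate 1 Kdm3b was -0.52 (0.400). Kdm4c also missed the threshold with a pseudocount of 0.1 (-2.46, 0.053), without a filter on low genes (0.1004) and under quantile normalization (-1.64, 0.131). With only control and Max MO ICM in the fit, which leaves 2 residual degrees of freedom, the adjusted p was 0.076 for Kdm3a, 0.121 for Kdm1a and 0.214 for Kdm4c. The median change over all genes was -0.21 on the log2 scale, against -1.53 over the 5 tested members.

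The wider pathway lists moved downward in Max MO ICM as well. All 7 demethylases of other residues fell, with a median of -1.91, the largest being Kdm6a at -2.48, Kdm5a at -2.43 and Kdm5c at -2.35. Of 4 other H3K9 demethylases tested, Jmjd1c, the Kdm3 paralog, fell by 2.06 and Phf8 by 1.87. Of 6 H3K9 methyltransferases tested, Setdb1 fell by 2.34 and Suv39h1 by 1.62. Of 10 readers and cofactors 5 fell, led by Atrx at -2.93, Morc2a at -2.31 and Uhrf1 at -1.96, while the median over the 9 tested Kdm1a partners was -0.55. Summed TE markers were 2875 and 6201 TPM in Max MO ICM against 16944 and 377 TPM in control ICM, and ICM markers 996 and 963 TPM against 1307 and 1711 TPM; their part in these falls was not tested.

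**Figure D4:**
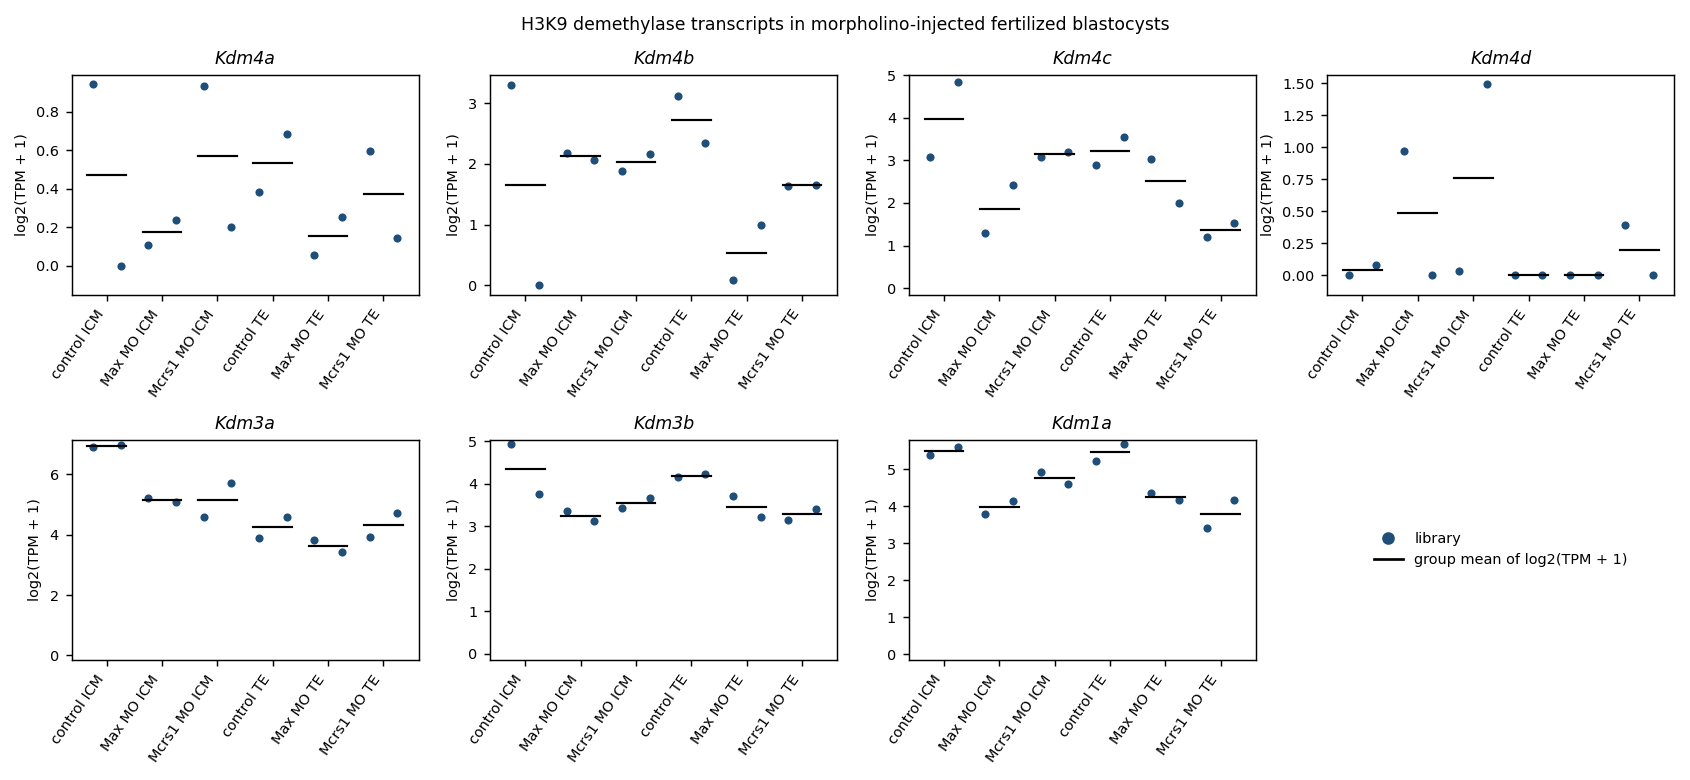
Level of each H3K9 demethylase in both lineages of fertilized blastocysts after control, Max or Mcrs1 MO, as log2(TPM + 1) with its own scale in each panel. Points are the 2 libraries of a group and bars are their means. Kdm3a is at 119 and 124 TPM in control ICM and at 51.8 TPM or less in every other library.

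In Max MO TE limma called 0 of the 5 tested members, with 2 at an unadjusted p under 0.05, against 2.5% of all genes. Kdm1a had 36.6 and 50.4 TPM in control TE and 19.6 and 16.9 TPM in Max MO TE, -1.19 ± 0.36 (adjusted p = 0.097), and passed in a fit of those groups alone (adjusted p = 0.044). Kdm4b had 7.64 and 4.08 TPM in control TE and 0.0665 and 0.982 TPM in Max MO TE, -2.19 ± 0.90 (adjusted p = 0.197). All 5 differences were negative. The response to Max MO was compared between ICM and TE by an interaction term, which called 0 members and 0% of all genes, with 0 members at an unadjusted p under 0.05. It is therefore not shown that Kdm3a, Kdm4c or Kdm1a responded differently in the lineages. Without control ICM replicate 1 the term called Kdm4b, as described with that gene.

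In Mcrs1 MO ICM Kdm3a was the member that fell, 1 of 5 against 10.1% of all genes called and 5.21% lower. Its libraries held 23.0 and 51.8 TPM, both under the control pair, a difference of -1.78 ± 0.44 on the log2 scale (SE, limma adjusted p = 0.028). Without control ICM replicate 1 it was -1.81 (adjusted p = 0.029), and without Mcrs1 MO ICM replicate 1 it was -1.21 (adjusted p = 0.192). Replicate 1, the lower of the pair, also had the lower sum of ICM markers, 334 TPM against 889 TPM in replicate 2 and 1307 and 1711 TPM in control ICM. TE markers summed to 12356 and 8718 TPM, against 16944 and 377 TPM in control ICM, and the part of either list in the fall was not tested. Kdm1a, at 29.5 and 23.3 TPM, was -0.74 ± 0.36 (adjusted p = 0.203), and Kdm4c, at 7.47 and 8.20 TPM, was -0.82 ± 0.68 (adjusted p = 0.455).

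In Mcrs1 MO TE Kdm1a fell, 1 of 5 against 5.08% of all genes called and 3.31% lower. It held 9.74 and 17.1 TPM against 36.6 and 50.4 TPM in control TE, -1.66 ± 0.36 (limma adjusted p = 0.027). Leaving out any of the 4 libraries, control TE replicate 1 or 2 or Mcrs1 MO TE replicate 1 or 2, gave an adjusted p between 0.106 and 0.190 with differences from -2.03 to -1.28. Kdm4c, at 1.30 and 1.89 TPM against 6.47 and 10.7 TPM, did not pass, -1.85 ± 0.68 (adjusted p = 0.123). Kdm3a was at 14.3 and 25.4 TPM, inside and just above the control TE pair of 13.7 and 23.2 TPM, +0.09 ± 0.44. The Kdm3a response to Mcrs1 MO differed between ICM and TE by -1.87 ± 0.62, with an unadjusted limma p of 0.0115 and an adjusted p of 0.476, and the interaction term called 0 of 5 members and 0% of all genes, with 1 member at an unadjusted p under 0.05.

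Pathway genes again fell where they were called after Mcrs1 MO. In ICM, where 5.21% of all genes were lower, 4 of 7 demethylases of other residues fell, led by Kdm5c at -2.13, Kdm5b at -2.02 and Kdm6b at -1.84. There 2 of 4 other H3K9 demethylases fell, Phf8 by 2.30 and Jmjd1c by 2.17, and 2 of 10 readers and cofactors fell. In the same lineage 0 of 6 H3K9 methyltransferases and 0 of 9 Kdm1a partners were called. In TE, where 3.31% of all genes were lower, 4 of 7 demethylases of other residues fell, led by Kdm6b at -2.90, Kdm2a at -2.09 and Kdm5a at -1.87. There 0 of 4 other H3K9 demethylases and 0 of 6 H3K9 methyltransferases were called. Of 10 readers and cofactors 1 fell, and of 9 Kdm1a partners 1 fell.

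Kdm4b in the fertilized blastocysts turned on a single library. Control ICM held 8.88 TPM in replicate 1 and was listed at 0 in replicate 2, with 3.54 and 3.18 TPM in Max MO ICM and 2.69 and 3.49 TPM in Mcrs1 MO ICM. The difference to control was +0.47 for Max MO and +0.37 for Mcrs1 MO, neither past the threshold. Without control ICM replicate 1 both were past it, +2.12 (limma adjusted p = 0.028) and +2.03 (adjusted p = 0.041), measured against a library listed at 0. So were, against that same library, control ICM minus control TE at -2.73 (adjusted p = 0.013) and the difference between ICM and TE in the response to Max MO, +4.31 (0.018), and to Mcrs1 MO, +3.10 (0.047). Kdm4a was below 1 TPM on its reference row in all 12 libraries. On assembled loci it reached 25.4 TPM in control ICM replicate 1 and 17.6 TPM in control TE replicate 2. The other control library of each lineage held 0 there. Kdm4d was listed at 0 in 3 of the 4 control libraries and reached 1.82 TPM in Mcrs1 MO ICM replicate 2. Neither gene was tested on the reference row.

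The level on a gene's reference row was often lower than the level of the locus assembled from the same library at that place. For Kdm4c the median over 68 libraries was 3.34 TPM on the reference row and 12.96 TPM in the assembled loci of its strand, which were higher in 60 libraries. Kdm3b had 5.39 and 21.0 TPM, Kdm3a 16.2 and 24.1 TPM, and Kdm1a 22.9 and 28.4 TPM. Kdm4a had no assembled locus in 20 libraries, Kdm4b in 29 and Kdm4d in 60. Spearman's rho between both measures over the libraries was 0.96 for Kdm1a, 0.93 for Kdm4b, 0.87 for Kdm4a, 0.83 for Kdm3a, 0.80 for Kdm4c and 0.78 for Kdm3b, as a description, since both come from the same reads.

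**Figure D5:**
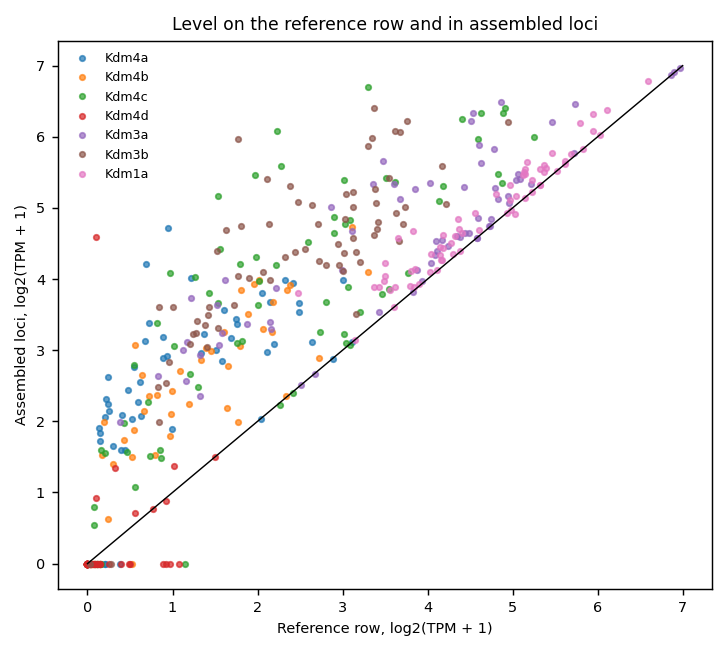
TPM of each member on its reference row (horizontal axis) and summed over the loci assembled at the gene (vertical axis), both as log2(TPM + 1), with one point per library and gene and the line of equal values. Most points of Kdm4c and Kdm3b lie above the line, and points at 0 on the vertical axis are libraries without an assembled locus.

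Fitted on the assembled loci, the rises of Kdm3a and Kdm4c from E2C to L2C and all 5 changes from 6 hpa to 8C were past the threshold, as were the Kdm3a differences between ICM and TE. Kdm4b, left out of the reference-row test, was +1.94 from E2C to L2C (limma adjusted p = 0.022), +1.51 from 6 hpa to 8C (adjusted p = 0.047) and +3.12 in CCs over 6 hpa (adjusted p = 9.3e-04). The fall of Kdm1a from E2C to L2C was -0.67 (adjusted p = 0.202), and that of Kdm1a in Mcrs1 MO TE was -1.32 (adjusted p = 0.082). Kdm3b passed in steps where the reference row did not, -1.66 from 6 hpa to 14 hpa (limma adjusted p = 0.0069), +1.64 from 14 hpa to E2C (0.015), +1.09 from E2C to L2C (0.044), -1.62 in Max MO ICM (0.011) and -1.55 in Mcrs1 MO ICM (0.027).

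Genes with the most similar course were found for each member as those with the highest Pearson correlation of group means of log2(TPM + 1) over the 10 groups of the first experiment, out of 12084 genes. Kdm3b was closest to Rdh13 (r = 0.99), Coq3 (0.98) and Pfas (0.98), and Kdm4c to 1200014J11Rik (0.98), Pcgf5 (0.98) and 1810044D09Rik (0.98). Kdm4a was closest to 0610040F04Rik (0.99), Gm11237 (0.99) and Fa2h (0.99), Kdm3a to Prmt10 (0.95), Ankzf1 (0.94) and Herc4 (0.93), and Kdm4b to Map3k7 (0.95), Cpt1a (0.95) and Rragd (0.94). Kdm4d was closest to Hpgd (0.97), Dusp22 (0.94) and Zfp62 (0.92) at levels near 0. Kdm1a, with its drop at L2C and return at 4C on the reference row, had the least similar neighbours, Cir1 (0.85), Spice1 (0.81) and Dtwd1 (0.81). All points share the same libraries, and no member was among the closest genes of another.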

How the data were processed

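RNA of 68 libraries was read by Smart-seq2 with paired ends. Per the labels and methods, the authors trimmed reads with cutadapt 1.16, aligned them to mm10 with HISAT2 and assembled and quantified genes with StringTie. The deposited tables hold coverage, FPKM and TPM per gene and no read counts, so depth was taken as coverage divided by FPKM and counting intervals could not be given. In each table the assembled loci sum to 1000000 TPM and the 24421 reference genes are listed beside them; values of the latter were used, summed per gene.

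Levels were tested as log2(TPM + 1) with limma 3.58.1 (R 4.3.3, eBayes with trend) over all genes with a mean of at least 1 TPM: 11867 genes in 53 SCNT libraries, 12084 with the CCs added, and 11219 in 12 morpholino libraries, each fit sharing 1 estimate of spread. The test replaces a count model, since the values are not counts. A gene was called at a Benjamini-Hochberg adjusted p under 0.05 and at least 2-fold; log2(TPM + 1) understates changes of low genes. The 5 members above the filter differ between fits: Kdm4b and Kdm4d were left out of the SCNT fits, and Kdm4a and Kdm4d of the morpholino fit. All members and the targeted genes were named, at most the 3 called genes with the largest absolute change from each pathway list per comparison, and the 3 genes most like each member. A gene of the Kdm1a partner list that this rule would name is not reported here. The fitting script was tested on simulated data.

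Groups and replicate numbers came from the labels. Some labels speak of 3 replicates per stage where 6 libraries are held, so replicates 1 to 3 and 4 to 6 were also fitted apart; whether these are batches is not stated. A 4C library numbered 5 in its label was also tried as number 6. Same-numbered libraries deviated together in every pair for 14 hpa and 6 hpa (r from 0.14 to 0.39) and for SCNT ICM and TE (0.13 to 0.30), and a replicate block was tried as an alternative. Other alternatives were a pseudocount of 0.1, no filter, a mean of at least 5 TPM, rescaling over annotated genes and quantile normalization. Fits of the compared groups only were also run. In the SCNT fit each replicate number was left out of all groups at once. Single libraries were left out only in the fit with CCs and the morpholino fit. The fit on assembled loci was added after the data were seen. Members and lists were chosen with earlier results of these data known. Promoter windows came from RefSeq (5 of 7 members matched). Python 3.11.15 was used for summaries.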

Additional observations from a re-analysis of the deposited data

Results flagged for a closer look

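In groups of 4 to 10 libraries, a library was singled out where its gap to the nearest other exceeded Dixon's 95% critical value. This happened in 9 of 62 member and group pairs, where chance gives about 1 in 20. Most were genes near 0. Kdm4d was 0.708 TPM in 6 hpa replicate 5 (others at most 0.0880), 0.857 TPM in 8C replicate 2 (others at most 0.106), 0.0141 TPM in morula replicate 2 and 0.0301 TPM in SCNT ICM replicate 6 (others listed at 0). Kdm4b was 0.230 TPM in E2C replicate 2 (others at most 0.0515) and 2.46 TPM in SCNT ICM replicate 4 (others at most 0.586).

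The 3 others were at higher levels. Kdm4c was 3.69 TPM in 4C replicate 2 against 23.7 to 37.0 TPM in the other libraries. Kdm3a was 115.5 TPM in morula replicate 2 against 16.1 to 30.2 TPM. Kdm1a was 4.56 TPM in L2C replicate 5 against 10.3 to 13.5 TPM. No cause was tested for any of them.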

How the results depend on the processing

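Of 24 differences past the threshold, 10 stayed past it in every alternative run, and none of the 24 changed direction. Kdm4c from L2C to 4C, not past it, was -0.037 among replicates 1 to 3. Counts of members past the threshold moved as follows; the causes were not tested. E2C to L2C, with 3, gave 2 on rescaling, in replicates 1 to 3 alone and without replicate 4 or 5, each time without Kdm1a, and 4 without a filter, on assembled loci and in replicates 4 to 6 alone. L2C to 4C gave 3 under quantile normalization, without Kdm4a. With a pseudocount of 0.1, and on assembled loci, 6 to 14 hpa gave 1. With a mean of at least 5 TPM, under which fewer members are tested, L2C to 4C gave 1, 6 hpa to 8C 3 and CC against 6 hpa 2. Rescaling gave 1 for 4C to 8C. Quantile normalization gave 0 for morula to ICM and for Mcrs1 MO TE, and 2 for CC against 6 hpa. Without a filter Mcrs1 MO ICM gave 0. Assembled loci gave 0 for morula to ICM and Mcrs1 MO TE, and 2 for Mcrs1 MO ICM. Fits of the compared groups only gave 0 for 14 hpa to E2C, morula to ICM, SCNT ICM against TE, Max MO ICM, Mcrs1 MO ICM and control ICM against TE, 1 for Max MO TE and 2 for Mcrs1 MO TE. Replicates 1 to 3 alone gave 0 for L2C to 4C and 2 for morula to ICM, and replicates 4 to 6 alone gave 5 and 2, and 1 each for 4C to 8C and 8C to morula. Leaving a replicate number out of all SCNT groups gave 0 to 1 from 14 hpa to E2C and from 4C to 8C. It gave 2 to 3 from L2C to 4C. Leaving out single libraries gave 2 to 4 for CC against 6 hpa. In the morpholino fit this leaves 1 library in a group, so those counts are not given.

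The replicate block changed the count from L2C to 4C, where 3 members were called instead of 2 with Kdm3a added at -1.0 (limma adjusted p = 0.036), and no other call of a member. Rescaling moved the median of all genes by +0.28 from E2C to L2C and -0.24 from L2C to 4C, and quantile normalization by -0.28 and +0.42. Levels under 1 TPM, as for Kdm4d, cannot be separated from 0 without read counts.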

Other observations

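Kdm4d in L2C replicate 4 had 23.2 TPM in the loci assembled at the gene and 0.0696 TPM on its reference row. Assembled loci were higher than the reference row for Kdm4d in 5 of 68 libraries and for Kdm3b in 66.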
